A study of Branchiostoma lanceolatum with 8 samples.

Results

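Keratins and transglutaminases were followed in pieces of amphioxus ectoderm with and without Activin. The genes were taken by a rule on names that was set with earlier results of these data known. It kept every row of the deposited tables whose gene symbol was KRT or TGM followed by a digit, each identifier apart. This gave 18 genes of 18998 in either table, 8 keratins and 10 transglutaminases, carrying 6 distinct symbols. Of these, 11 were listed at both times, and 7 were listed only in the later table.

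The explants came from *Branchiostoma lanceolatum*, an invertebrate chordate. Untreated explants and explants given human recombinant Activin at 50 ng/mL were collected at 11 and 19 hours post fertilization (hpf), with 2 poly(A) RNA libraries in each of 4 groups. The labels give no genotype or strain. Each library pooled explants from more than a single fertilization, so the error terms describe pools and not embryos. Values per library were not used here; what follows rests on the mean normalized count, log2 fold change, standard error and adjusted p in the authors' deposited table of the time in question.

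Keratins are the intermediate filament proteins of epithelial cells. In vertebrates they assemble as pairs of a type I and a type II chain, and the resulting network, anchored at cell junctions, gives the epidermis its mechanical strength. Transglutaminases join proteins by bonds between glutamine and lysine side chains, and TGM1 seals the outer envelope of mammalian epidermal cells in this way. Amphioxus has a simple, ciliated epidermis without the cornified layers of mammalian skin. The symbols are human-style names given by the authors' annotation. In humans KRT8 is the type II keratin of simple epithelia, KRT5 the type II keratin of basal epidermal cells, and KRT73 and KRT84 type II keratins of the hair follicle. KRT36 is a type I keratin of hair. Orthology of the amphioxus genes to these human genes was not tested.

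Each fold change is given as log2 of Activin over control, ± is the authors' standard error with 2 libraries a group, and a gene is called where the two-sided Wald test gave a Benjamini-Hochberg adjusted p below 0.05 over all rows. The headers do not say which treatment is the numerator. Activin was taken as the numerator since LEFTY2, a Nodal target and antagonist, had values of 6.39 at 11 hpf and 6.92 at 19 hpf in the authors' deposited table, with CHRD at 4.59 and 4.75 and GSC at 2.77 and 3.88. Each direction below depends on that reading. A mean for each group was derived from the deposited overall mean and fold change, called a rebuilt mean below, and a fold is left out where a rebuilt group mean lay under 3 normalized counts. In bulk samples fewer cells of a type and less RNA per cell cannot be told apart. The median standard error for genes with a mean of 1000 or more was 0.352 at 11 hpf and 0.329 at 19 hpf, against 1.60 and 1.74 for genes under 20. The depth of single libraries is unknown.

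At 11 hpf all 5 listed keratins were lower in Activin-treated explants. Over all 15793 rows 36.6% were called, 24.6% lower and 12.0% higher, that is 3880 and 1893 rows. That split followed the scaling, with 2616 lower and 4820 higher under total-count scaling and 4578 and 1301 on ribosomal centring, whereas all 5 keratins were lower under each of 5 other scalings. Keratin counts rebuilt from the authors' deposited table summed to 392008 in control and 5640 in Activin, a 69.5-fold difference. The median log2 fold change of the 5 was -5.86, against 0.07 over all rows. None was called higher, also at an unadjusted p below 0.05, where 0 were higher and 5 lower. The tables list only rows with some counts, so a scarce gene can enter through the group in which it is high, and these counts are descriptions of the listed genes.

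KRT8 (BL15060), named after the keratin of simple epithelia, had more reads than any other gene at 11 hpf. Its rebuilt mean was 257288 normalized counts in control and 4415 in Activin. The authors' deposited table gave it -5.86 ± 0.37 (Wald test, Benjamini-Hochberg adjusted p = 7.9e-54), a fall of 58.3-fold with a 95% interval of 35.3 to 96.3. Reads grow with transcript length, and no lengths were at hand for these identifiers, so an order of counts between genes is not an order of transcripts. Within control explants KRT8 made up 2.12% of all rebuilt counts, and within Activin-treated explants 0.0716%. All rebuilt counts summed to 12126754 in control and 6165287 in Activin at 11 hpf, so a ratio of shares is smaller than the fold. Under total-count scaling the log2 fold change of KRT8 was -4.89. The 95% intervals here and below do not cover the choice of scaling.

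KRT36 (BL22645), the listed gene with the name of a type I keratin, had rank 3 by mean count. Rebuilt means were 134149 in control and 1204 in Activin, or 1.11% and 0.0195% of each group's counts. In the authors' deposited table its change was -6.80 ± 0.41 (Wald test, Benjamini-Hochberg adjusted p = 1.6e-57), 111-fold with an interval of 63.4 to 196. The interval overlapped that of KRT8. Together KRT8 and KRT36 took 3.23% of the counts of control explants and 0.0911% of those of Activin-treated explants.

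The other keratins were scarce at this time. KRT84 (BL19675) had rebuilt means of 299.5 in control and 4.64 in Activin, with -6.01 ± 0.64 in the authors' deposited table. KRT73 (BL15058) had 145 and 3.68, with -5.30 ± 0.83. KRT5 (BL10269) had 127 and 12.5, with -3.34 ± 0.69, the smallest fall of a keratin at 11 hpf and still 10.2-fold, with an interval of 3.98 to 25.95. All of these passed the Wald test, the largest Benjamini-Hochberg adjusted p being 8.7e-06 for KRT5.

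**Figure D1:**
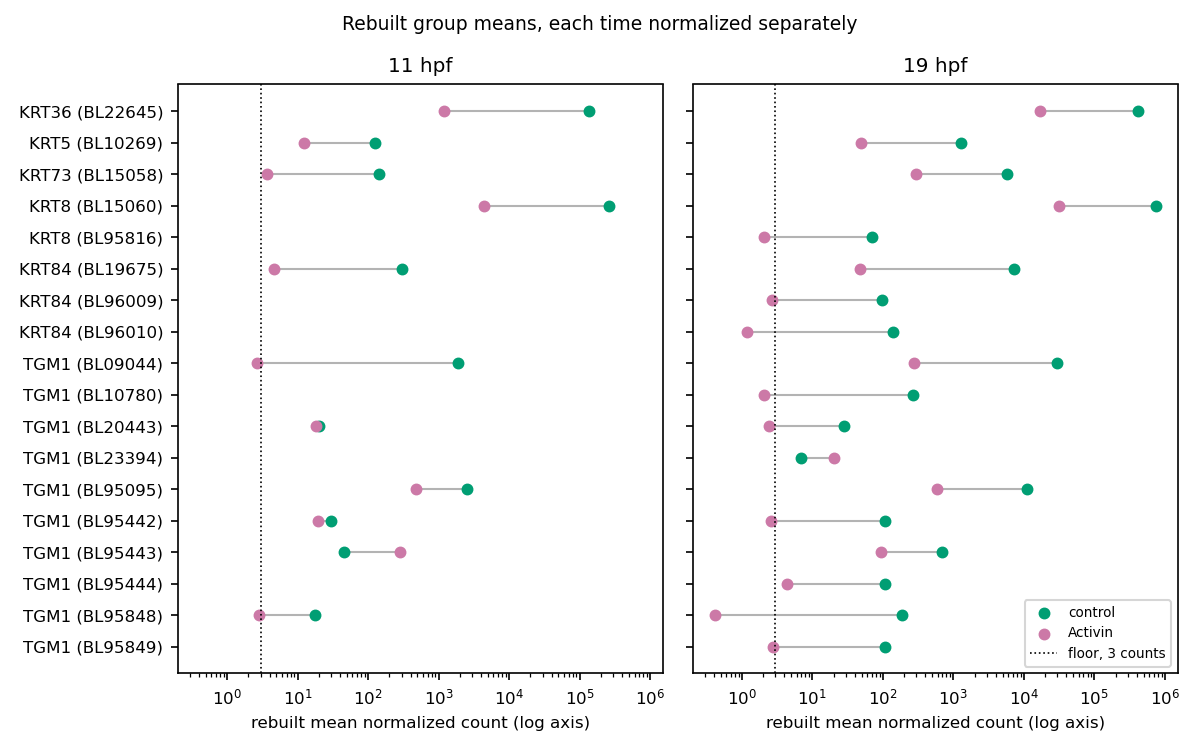
Rebuilt mean normalized counts (log axis) of each keratin and transglutaminase row in control (green) and Activin-treated (pink) explants at 11 hpf (left) and 19 hpf (right), with the floor of 3 counts dotted; no error is shown because values per library were not used. All keratins lie higher in control at both times, with KRT8 (BL15060) falling from 257288 to 4415 at 11 hpf, and TGM1 (BL95443) is the row that lies higher in Activin by call at 11 hpf, at 281 against 45.4.

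At 19 hpf all 8 listed keratins were lower in Activin, against 46.4% of all 16733 rows called, 27.7% lower and 18.7% higher. Of the 8, 3 had a rebuilt Activin mean under the floor, and a scarce gene can again enter through the group in which it is high. Under total-count scaling 3339 rows were lower and 5653 higher, and on ribosomal centring 7177 and 1293, in place of 4640 and 3128, and the 8 keratins were lower under each of 5 other scalings. Their summed rebuilt counts were 1176207 in control and 48411 in Activin, 24.3-fold apart, and their median log2 fold change was -4.89, against 0.07 over all rows. None was higher at an unadjusted p below 0.05, a count of 0, and 8 were lower. KRT8 and KRT36 had the first and second highest mean counts of the table. They made up 8.28% of the counts of control explants and 0.620% of those of Activin-treated explants. KRT8 carried a wide error at this time, given below, so these shares and the keratin sums are uncertain.

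KRT8 (BL15060) was the least precisely measured gene of those with a mean of 20000 or more at this time. Rebuilt means were 739980 in control and 31113 in Activin, and the authors' deposited table gave -4.57 ± 1.52 (Wald test, Benjamini-Hochberg adjusted p = 0.0077). The fall of 23.8-fold thus carried a 95% interval of 3.001 to 188. Its standard error was the largest of these 45 genes, the next being 0.447 and their median 0.307. Of 2112 genes with a mean of 1000 or more, 1 had a larger error. At 11 hpf the error of KRT8 was 0.370, with 13 of 49 genes of such means above it. In a negative binomial model with 2 libraries a group, and with counting noise neglected, an error of this size corresponds to a coefficient of variation of 106% between libraries, against 23.1% for KRT36. Whether the spread lay in 1 group or in both cannot be read from the table, and its cause was not tested.

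KRT36 (BL22645) had a change of almost the same size with a narrow error. Rebuilt means were 421743 in control and 16900 in Activin, and the authors' deposited table gave -4.64 ± 0.33 (Wald test, Benjamini-Hochberg adjusted p = 3.7e-42), 24.96-fold with an interval of 15.9 to 39.2. Without KRT8 (BL15060), 16 of the members listed at 19 hpf were called lower. The share of KRT36 in the keratin sum was 35.9% in control and 34.9% in Activin, where at 11 hpf it had been 34.2% and 21.4%. At 19 hpf that sum includes KRT8 with its wide error.

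**Figure D2:**
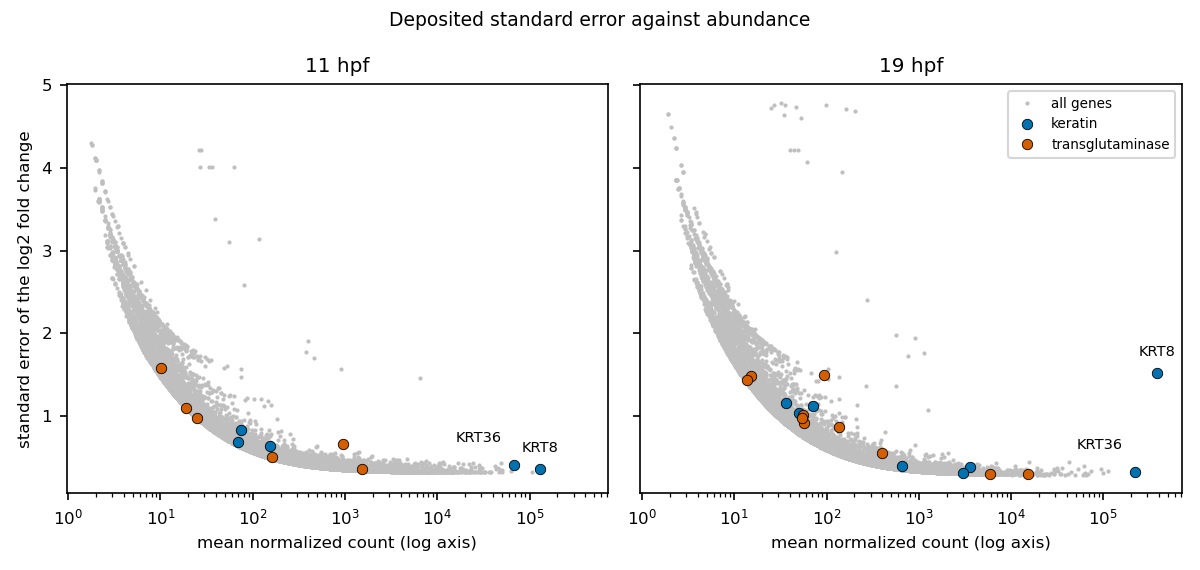
Standard error of the log2 fold change, as deposited by the authors, against mean normalized count (log axis) for all genes (grey), keratins (blue) and transglutaminases (orange) at 11 hpf (left) and 19 hpf (right). KRT8 lies with other abundant genes at 11 hpf, at 0.370, and apart from them at 19 hpf, at 1.52, while KRT36 lies at 0.414 and then at 0.333.

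KRT84 (BL19675) showed the largest keratin fall at 19 hpf. Its rebuilt means were 7159 in control and 48.0 in Activin, and the authors' deposited table gave -7.22 ± 0.39, 149-fold with an interval of 87.5 to 254. KRT73 (BL15058) went from 5737 to 296, at -4.28 ± 0.31, and KRT5 (BL10269) from 1280 to 48.7, at -4.72 ± 0.40. The Benjamini-Hochberg adjusted p of the Wald test for these 3 was at most 1.0e-30, that of KRT5.

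Copies of a keratin name listed only at 19 hpf were scarce and also lower in Activin. KRT84 (BL96010) had 141 rebuilt counts in control, KRT84 (BL96009) 97.0 and a further KRT8 (BL95816) 70.3. All 3 lay under the floor of 3 counts in Activin. The authors' deposited table gave them -6.91 ± 1.12, -5.18 ± 1.03 and -5.07 ± 1.16, all called. Rows this scarce can be listed through the control group alone, so their direction is no separate support. The main KRT84 gene made up 96.8% of the counts of its name in control, and the main KRT8 gene 99.99%. Whether reads shared by near-identical copies were split by the counting is not given in the sources used here, and the values of the minor copies are uncertain for that reason.

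The keratins also took a larger share of counts in the later control explants. KRT8 made up 2.12% of control counts at 11 hpf and 5.27% at 19 hpf, KRT36 1.11% and 3.004%, KRT84 (BL19675) 0.00247% and 0.0510%, KRT73 0.00119% and 0.0409%, and KRT5 0.00105% and 0.00912%. In Activin-treated explants the shares were likewise larger at 19 hpf, for KRT8 0.0716% and then 0.402%, and for KRT36 0.0195% and then 0.218%. These shares set side by side tables that were normalized separately, and the change with time was not tested. The KRT8 shares at 19 hpf also carry the wide error given above.

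Transglutaminases, all named TGM1, split by identifier at 11 hpf. Of 6 listed, 2 were called lower, 1 was called higher and 3 were not called, where the background was again 24.6% lower and 12.0% higher. These counts are near the background and are no result about the family as a whole. Summed over the name, rebuilt counts were 4572 in control and 809 in Activin, 5.65-fold apart. The median log2 fold change of the 6 was -1.51.

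TGM1 (BL09044) had the second lowest log2 fold change of all 15793 rows at 11 hpf. It had 1912 rebuilt counts in control and 2.70 in Activin, under the floor, so that no fold is given. The authors' deposited table listed -9.47 ± 0.66 (Wald test, Benjamini-Hochberg adjusted p = 5.9e-44). TGM1 (BL95095) fell less, from 2546 to 485, at -2.39 ± 0.37 (Wald test, Benjamini-Hochberg adjusted p = 6.0e-10), 5.25-fold with an interval of 3.20 to 8.63. The 95% intervals of BL09044 and BL95095 did not overlap.

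TGM1 (BL95443) was the exception, higher in Activin at 11 hpf. Its rebuilt means were 45.4 in control and 281 in Activin. In the authors' deposited table its change was 2.63 ± 0.51 (Wald test, Benjamini-Hochberg adjusted p = 2.0e-06), 6.18-fold with an interval of 3.09 to 12.4. It made up 0.994% of the summed TGM1 counts in control and 34.7% in Activin. TGM1 (BL95442), with the preceding identifier number, stood at -0.62 ± 0.98, TGM1 (BL20443) at -0.17 ± 1.10 and TGM1 (BL95848) at -2.65 ± 1.59, with 10.2 to 24.96 mean normalized counts and no call.

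At 19 hpf 9 of 10 TGM1 genes were lower and 0 higher in Activin, with 27.7% of all rows lower and 18.7% higher. At an unadjusted p below 0.05 the counts were also 9 and 0. Of the 9 called lower, 5 had a rebuilt Activin mean under the floor. The summed rebuilt counts were 42629 in control and 991 in Activin, 43.03-fold apart, and the median log2 fold change was -4.96. In control explants the name took 0.304% of all counts, where at 11 hpf it took 0.0377%. Most of this was TGM1 (BL09044), with 70.3% of the TGM1 counts of control explants at 19 hpf.

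TGM1 (BL09044) went from 29949 rebuilt counts in control to 281 in Activin at 19 hpf. The authors' deposited table gave -6.74 ± 0.31 (Wald test, Benjamini-Hochberg adjusted p = 1.1e-103), 107-fold with an interval of 70.3 to 162. TGM1 (BL95095) went from 11170 to 581, at -4.27 ± 0.30, 19.2-fold with an interval of 12.7 to 29.1. TGM1 (BL95443), higher in Activin at 11 hpf, was now lower, with 696 rebuilt counts in control and 93.8 in Activin and a value of -2.89 ± 0.56 in the authors' deposited table (Wald test, Benjamini-Hochberg adjusted p = 1.2e-06).

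Scarce TGM1 genes were mostly lower too. TGM1 (BL10780) had 271 rebuilt counts in control, TGM1 (BL95848) 186, and TGM1 (BL95849), TGM1 (BL95444) and TGM1 (BL95442) 106 to 109. In the authors' deposited table their values ran from -8.82 ± 1.505 for BL95848 to -4.62 ± 0.92 for BL95444, all called, and in Activin all but BL95444, at 4.41 counts, lay under the floor. Here too scarce rows can be listed through control alone, so their direction is no separate support. TGM1 (BL20443), with 28.0 counts in control, had -3.52 ± 1.48 and an adjusted p of 0.040 by the Wald test with Benjamini-Hochberg adjustment. That call was lost under 4 other scalings. TGM1 (BL23394), at 1.58 ± 1.44 with 6.86 counts in control and 20.5 in Activin, was not called.

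**Figure D3:**
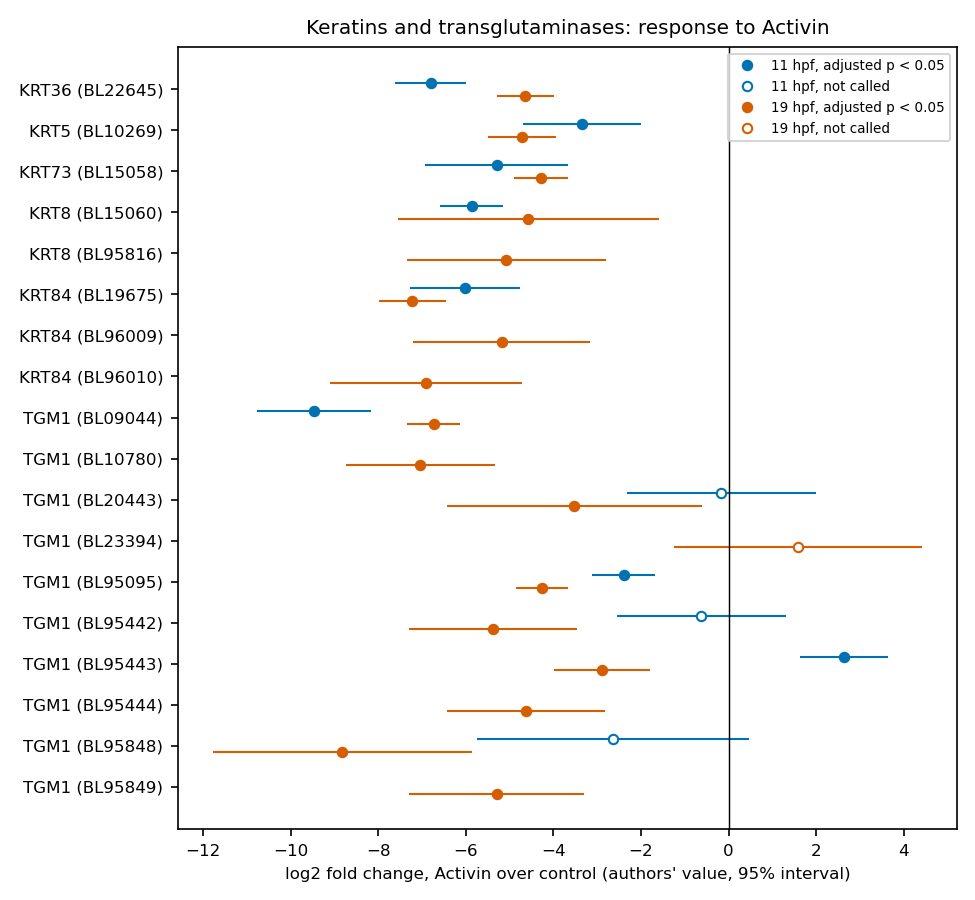
Log2 fold change of Activin over control from the authors' deposited tables for each keratin and transglutaminase row, with 95% intervals, at 11 hpf (blue) and 19 hpf (orange); open circles were not called and absent points were not listed. Keratins lie left of 0 at both times, whereas TGM1 (BL95443) moves from 2.63 at 11 hpf to -2.89 at 19 hpf.

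Whether the response differed between times was tested on the 11 members listed at both, by a Wald test of the difference of the deposited log2 fold changes, adjusted over 13528 genes. Of the 11, 4 had a lower value at 19 hpf, 2 a higher value and 5 were not called. Over all genes 16.8% were called, 6.70% lower and 10.1% higher at 19 hpf. The 4 lower were all TGM1 genes, and the 2 higher were KRT36 and TGM1 (BL09044).

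TGM1 (BL95443) changed sign, with a difference of -5.52 ± 0.76 between times (Wald test, Benjamini-Hochberg adjusted p = 6.8e-11). Its rebuilt control mean was 45.4 at 11 hpf and 696 at 19 hpf, and its Activin mean 281 and 93.8, in tables normalized separately. TGM1 (BL95442) differed by -4.75 ± 1.39, TGM1 (BL95095) by -1.87 ± 0.47 and TGM1 (BL95848) by -6.17 ± 2.19, each lower at 19 hpf. By the Wald test their Benjamini-Hochberg adjusted p were 0.0070, 0.0014 and 0.033. The rebuilt Activin mean lay under the floor for BL95848 at both times and for BL95442 at 19 hpf. Neither BL95848 nor BL95442 was called at 11 hpf, so the sizes of these differences are uncertain.

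KRT36 (BL22645) had a shallower fall at 19 hpf, by 2.16 ± 0.53 (Wald test, Benjamini-Hochberg adjusted p = 9.1e-04). TGM1 (BL09044) also differed upward, by 2.73 ± 0.73 (Wald test, Benjamini-Hochberg adjusted p = 0.0026), from an 11 hpf value whose Activin mean lay under the floor. For KRT8 (BL15060) the difference was 1.29 with a 95% interval of -1.78 to 4.37, an interval that includes the difference seen for KRT36. KRT73 differed by 1.02 ± 0.89, KRT84 (BL19675) by -1.21 ± 0.75, KRT5 by -1.37 ± 0.80 and TGM1 (BL20443) by -3.35 ± 1.85, none called. The interval for KRT5 ran from -2.93 to 0.19.

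**Figure D4:**
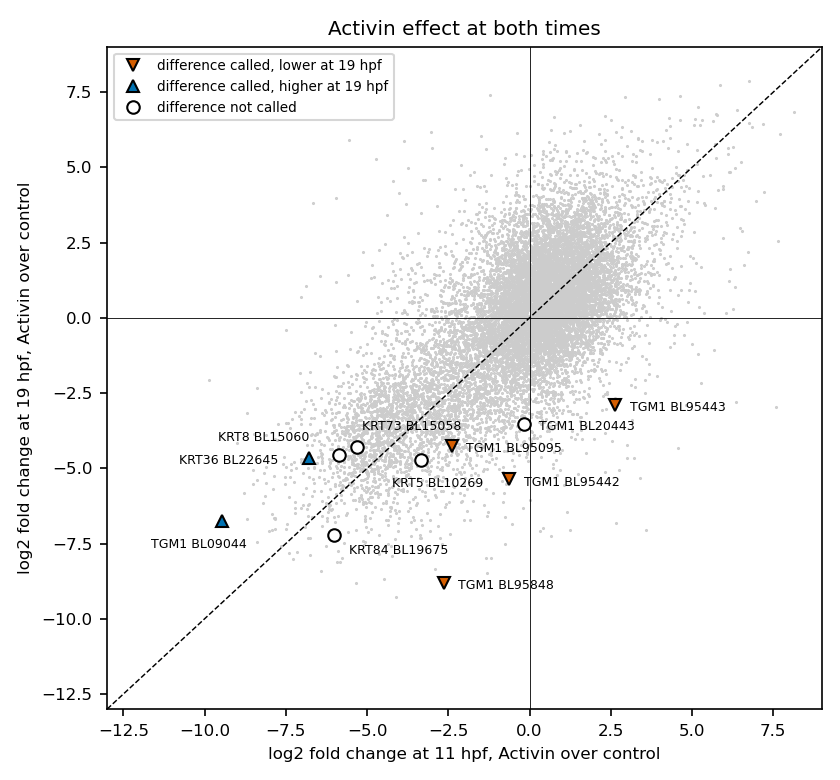
Log2 fold change of Activin over control at 19 hpf against that at 11 hpf for genes in both tables (grey) and the 11 keratins and transglutaminases among them; triangles mark a difference between times called at adjusted p below 0.05 and the dashed line marks equal values. TGM1 (BL95443) lies at 2.63 and -2.89, the only one of the 11 right of 0 at 11 hpf, and KRT36 lies above the line at -6.80 and -4.64.

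Genes whose response was most like that of the most abundant keratin were ranked by distance over both log2 fold changes, among 4876 named genes with a mean of 100 or more at both times. Nearest to KRT8 was SORD (BL62340), sorbitol dehydrogenase, at a distance of 0.166, followed by C7orf31, TRIM25, AASS and PADI2. PADI2 (BL02959), an enzyme that converts protein arginine to citrulline, lay at -5.58 ± 0.37 and -4.68 ± 0.35 in the authors' deposited tables for 11 and 19 hpf. Nearest to TGM1 (BL95095) was FAM55C at 0.128, followed by TXNDC3, ACTB, C20orf26 and C15orf33. ACTB (BL95821), named after a cytoplasmic actin, lay at -2.39 ± 0.45 and -4.45 ± 0.33. Only 2 values enter each distance, and the KRT8 value at 19 hpf carries the wide error above.

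Rows of other intermediate filament genes, taken as a list of non-keratin names, were also mostly lower in Activin. Of 4 rows listed at 11 hpf 4 were lower and 0 higher, and at 19 hpf 6 of 8 were lower and 0 higher. The counts at an unadjusted p below 0.05 were the same, 4 and 0, then 6 and 0, while under total-count scaling 2 were lower and 0 higher, then 4 and 1. Shares over all rows were 24.6% lower and 12.0% higher at 11 hpf, then 27.7% and 18.7% at 19 hpf. Of the 15 symbols of the list only 2 matched at 11 hpf, VIM and LMNA, and 4 at 19 hpf. Most rows were copies of VIM, so the counts are no result about the list as a whole. VIM (BL01198), named after vimentin, the filament protein of mesenchymal cells in vertebrates, had -5.80 ± 0.37 at 11 hpf and -6.06 ± 0.32 at 19 hpf in the authors' deposited tables. Its rebuilt counts were 7177 in control and 129 in Activin, then 35385 and 531. VIM (BL07172) had -5.74 ± 0.34 and then -2.97 ± 0.32. VIM (BL97121) and VIM (BL22552), listed only at 19 hpf, had -6.71 ± 0.46 and -5.85 ± 0.40. Scarcer rows were VIM (BL10379), at -2.60 ± 0.98 at 11 hpf and not called at 19 hpf, and NEFM (BL32044), named after a neurofilament, at -4.41 ± 1.67 at 19 hpf with an Activin mean under the floor. VIM (BL10379) lost its call under 3 of 5 scalings and NEFM under 2 of 5. LMNA (BL12845), a lamin of the nuclear envelope found in most cell types, stood at -0.83 ± 0.33 and -1.20 ± 0.30, both called, but at 11 hpf it turned to 0.14 under total-count scaling and lost its call under 4 of 5 scalings. At 19 hpf LMNA lost its call under 3 of 5.

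Single rows among genes that anchor filaments or build the mammalian skin barrier were called in both directions. Of the list of plakins, desmosomal and hemidesmosomal genes 4 rows were listed at 11 hpf, of which 1 was lower and 0 higher, also at an unadjusted p below 0.05, and 0 and 1 under total-count scaling. At 19 hpf 2 of 6 were lower and 2 higher. Shares over all rows were 24.6% lower and 12.0% higher at 11 hpf, then 27.7% and 18.7% at 19 hpf. With so few rows these counts are no result about the list. MACF1 (BL09638), a cytoskeletal linker of the plakin family, had -1.80 ± 0.66 and then -5.21 ± 0.38 in the authors' deposited tables. Its call at 11 hpf was lost under upper-quartile scaling and under total-count scaling with or without KRT8 and KRT36. ITGA6, the integrin chain of hemidesmosomes in vertebrates, was -4.49 ± 0.62 for BL12604 and 3.34 ± 0.37 for BL15914 at 19 hpf, and DST (BL21513), another plakin, was 1.83 ± 0.36. No desmosomal cadherin, desmoplakin or plakoglobin symbol matched a row.

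Cornified envelope and barrier lipid genes numbered 3 lower and 1 higher of 13 at 11 hpf, and 3 lower and 1 higher of 14 at 19 hpf. None of these shares was above the background, 24.6% lower and 12.0% higher, then 27.7% and 18.7%, so the counts are no result about these genes. Under total-count scaling these were 2 lower and 5 higher, then 1 and 5. ALOX15B (BL06669), a lipoxygenase, had 179 rebuilt counts in control and 5.43 in Activin at 11 hpf, then 4551 and 63.4. The authors' deposited tables gave -5.05 ± 0.74 and -6.16 ± 0.42. ALOX12B (BL95151), another lipoxygenase, stood at -3.97 ± 0.67 and -2.96 ± 1.12, and ALOXE3 (BL05313) at -3.07 ± 1.20 at 11 hpf. SMPD1, a sphingomyelinase, was 1.16 ± 0.48 for BL01640 at 11 hpf and -1.39 ± 0.56 for BL07630 at 19 hpf, and ELOVL4 (BL21252), a fatty acid elongase, was 3.27 ± 1.03 at 19 hpf. The calls of ALOXE3, SMPD1 and ELOVL4, and that of ALOX12B at 19 hpf, were lost under at least 1 other scaling. Loricrin, involucrin and filaggrin matched no row, nor did F13A1 and EPB42, the other members of the transglutaminase family that were looked for.

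Rows named after regulators of epidermal genes in vertebrates were mostly lower, 8 of 12 at both times, with 2 higher each time. At 19 hpf 6 to 9 were lower under other scalings. Shares over all rows were 24.6% lower and 12.0% higher at 11 hpf, then 27.7% and 18.7% at 19 hpf. Only 9 of the 28 symbols of the list matched a row, so the counts describe these rows and not the list as a whole. TFAP2D (BL23731), an AP-2 factor, had 18797 rebuilt counts in control and 302 in Activin at 11 hpf, and 6403 and 957 at 19 hpf. Its changes in the authors' deposited tables were -5.96 ± 0.34 and -2.74 ± 0.39. GATA2 (BL18478), a GATA factor, stood at -4.82 ± 0.36 and -2.84 ± 0.37, KLF2 (BL10707) at -3.63 ± 0.36 and -2.04 ± 0.32, and OVOL1 (BL13786) at -3.56 ± 0.40 and -1.85 ± 0.34. KLF5 (BL18544) was not called at 11 hpf and had -3.43 ± 0.40 at 19 hpf. The 2 higher rows were both TP63, the p53 relative that mammalian epidermis depends on. TP63 (BL04328) had 2.28 ± 0.36 and 2.65 ± 0.37 and TP63 (BL19570) 1.86 ± 0.46 and 2.65 ± 0.47. GRHL1, a grainyhead factor of epithelial barrier formation, had 3 rows, all lower at 11 hpf, at -2.98 to -3.02. At 19 hpf they stood at -0.68 ± 0.56, not called, and at -0.99 ± 0.40 and -1.01 ± 0.35, both called as deposited and under 1 of 5 other scalings.

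**Figure D5:**
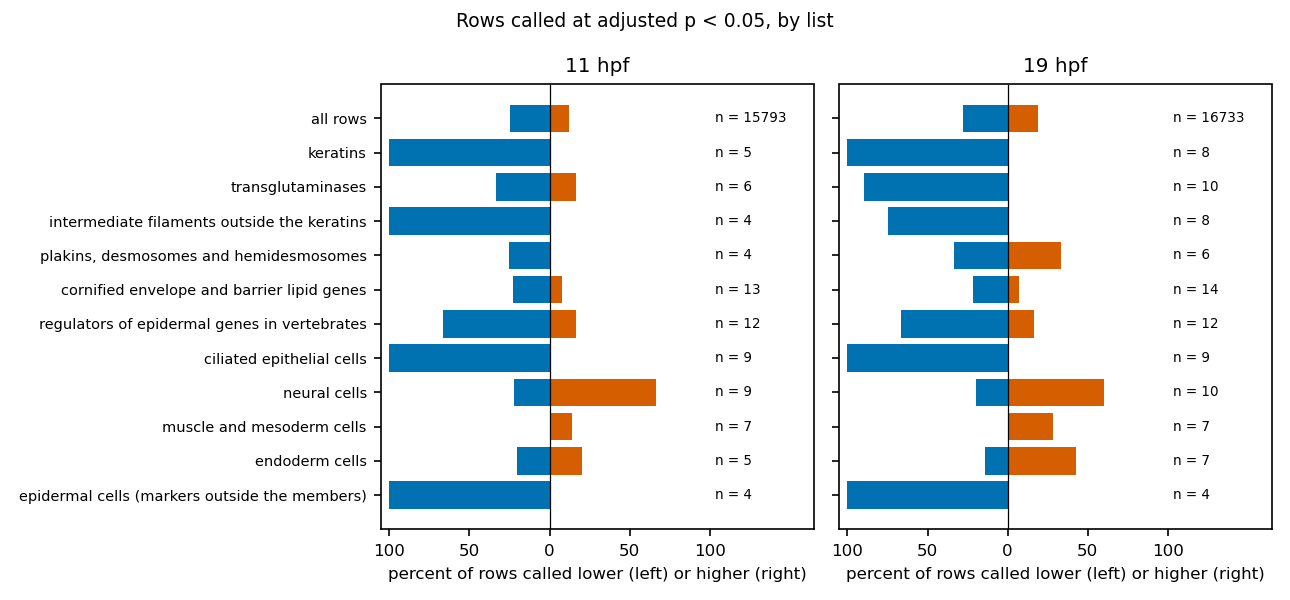
Percent of rows called lower (blue, left of 0) or higher (orange, right of 0) in Activin at 11 hpf (left) and 19 hpf (right) for all rows, the keratins, the transglutaminases, and the gene and marker lists, with the number of rows beside each bar. Keratins were all lower at both times, 5 and 8 rows. Of the transglutaminases 2 were lower and 1 higher of 6 at 11 hpf, and 9 were lower of 10 at 19 hpf. The sets differ, as 4 transglutaminases were listed only at 19 hpf, and the 6 listed at both times were all lower at 19 hpf.

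Markers of cell types in the explant were counted beside all rows. Of all rows 24.6% were lower and 12.0% higher at 11 hpf, then 27.7% and 18.7% at 19 hpf. Markers of epidermal cells outside the members, TFAP2D, GATA2, DLX1 and KLF2, were lower in 4 of 4 rows at both times, and their summed rebuilt counts were 66591 in control and 6551 in Activin at 11 hpf, then 37578 and 6415. These 4 rows are also among the regulators above, where the TP63 rows were higher, so they add no separate support. DLX3, DLX5, KLF4 and TFAP2A of the epidermal marker list matched no row. Markers of ciliated epithelial cells were lower in 9 of 9 rows at both times, with sums of 50996 and 5561, then 68190 and 7333. Neural markers were higher in 6 and lower in 2 of 9 rows at 11 hpf, with sums of 19428 and 52485, and higher in 6 and lower in 2 of 10 rows at 19 hpf, with sums of 17974 and 46109. Muscle and mesoderm markers were higher in 1 of 7 and then 2 of 7 rows, with sums of 156 and 422, then 209 and 2357, and none lower, also at an unadjusted p below 0.05. In Activin at 19 hpf TCF15 (BL21142) held 2059 of the 2357. With so few rows the counts higher are near the shares over all rows and are no result about these cells. Endoderm markers were split, 1 higher and 1 lower of 5, then 3 higher and 1 lower of 7, with sums of 350.1 and 664, then 4303 and 2621. At 11 hpf the endoderm counts were also near the shares over all rows. Over other scalings 8 or 9 ciliated markers and all 4 epidermal markers stayed lower, while on ribosomal centring neural markers were 3 higher and 3 lower at 19 hpf and endoderm markers 0 higher and 2 lower. The part of these cell types in the keratin result was not tested.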

How the data were processed

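RNA levels in 8 libraries of amphioxus ectodermal explants reached these results as 2 tables of the authors' own comparisons, 1 per time. The submitters' processing notes name HISAT2, featureCounts and edgeR. The file headers do not name the program that gave the Wald statistics and standard errors. No versions, build or annotation are given in the sources used here. Per the file headers, the mean is a signal, a depth-normalized count that the authors averaged over all libraries of a time. Fold changes and errors are the authors' log2 values, per the file headers. The authors also deposited a score, the Wald statistic, equal to the log2 ratio over its error in all 15793 and 16733 rows. Raw and adjusted p-values are the authors' too, per the file headers, and recomputing the Benjamini-Hochberg adjustment over every row returned the same adjusted values.

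The planned rule for such tables was applied, with the deposited values and no refit. Named genes were all members, the 4 largest called changes of each gene list and time, and the 5 genes nearest in response. Marker lists are given as counts and sums. Further rows were named after their values were seen. Members and lists were chosen with earlier results of these data known. Group means assume equal weight for both groups. The test between times was run on simulated data first. Alternatives were other thresholds, filters, scalings and ways of counting copies. The labels do not say that replicates came from separate fertilizations, each being a mixture, so p-values measure the spread between pools. No sequence is shown: 0 of the members matched the reference gene table, which holds another set of identifiers, and no coordinates are given. Computation used Python 3.11.15, pandas 2.3.3, numpy 2.4.6 and scipy 1.17.1.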

Additional observations from a re-analysis of the deposited data

Results flagged for a closer look

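The Activin effect differed between times for 6 of the 11 genes listed at both, by the Wald test of the difference with Benjamini-Hochberg adjustment over 13528 genes. Over all 13528 genes 16.8% were called, 6.70% with a lower log2 fold change at 19 than at 11 hpf and 10.1% with a higher one. As 19 minus 11 hpf on the log2 scale, the differences for TGM1 were -6.17 (BL95848), -5.52 (BL95443), -4.75 (BL95442), -1.87 (BL95095) and 2.73 (BL09044), and that for KRT36 (BL22645) was 2.16. A rebuilt Activin mean lay under 3 normalized counts for TGM1 (BL95848) at both times, for TGM1 (BL09044) at 11 hpf and for TGM1 (BL95442) at 19 hpf.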

How the results depend on the processing

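Calls of the members changed little with the processing. At 11 hpf 7 were lower under the alternatives run, except 6 with each name counted once by its most abundant identifier, where 0 were higher in place of 1. At 19 hpf 16 or 17 were lower under other thresholds, filters and scalings, 6 with each name counted once and 11 with identifiers in both tables, the last chosen after seeing the data. Both smaller numbers follow from fewer rows being counted. Differences between times numbered 5 to 7. The scalings added 0.20 (median of well measured genes), 0.44 (upper quartile), 0.98 (total count), 0.93 (total count without KRT8 and KRT36, chosen after seeing the data) and -0.34 (ribosomal centring) to every log2 value at 11 hpf, and 0.26, 0.54, 0.86, 0.74 and -1.02 at 19 hpf. Of 145 values of single members under a scaling, 135 kept direction and call. TGM1 (BL20443) at 11 hpf, not called, turned to 0.030, 0.27, 0.81 and 0.76 under the first 4 in that order, and TGM1 (BL95442), not called, to 0.35 and 0.31 under both total counts. TGM1 (BL20443) at 19 hpf lost its call under the same 4, at -3.26, -2.98, -2.66 and -2.78, by the Wald test with Benjamini-Hochberg adjusted p from 0.057 to 0.12. On ribosomal centring KRT5 gained a call between times, at -2.05, adjusted p 0.0498. No paired analysis was possible because the tables hold no values per library, and leaving out replicates, another count model and no filter on low counts were not run for the same reason. Depth limits the scarce genes: 2 members at 11 hpf and 8 at 19 hpf had a group mean under the floor.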
